A study of Mus musculus with 15 samples.

Results

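WNT proteins are secreted signals that bind a Frizzled receptor together with an LRP5 or LRP6 co-receptor at the cell surface. Glycogen synthase kinase 3 (GSK-3) acts inside the cell, in the complex that marks beta-catenin for destruction, and a bound receptor holds that complex back, so that beta-catenin enters the nucleus and works with TCF and LEF factors. WNT proteins leave the producing cell only after Porcn has attached a lipid and Wls has carried them to the surface. Ror1, Ror2 and Ryk are further WNT receptors, many of whose effects do not need beta-catenin, and R-spondins raise the number of Frizzled receptors on the surface by acting on LGR receptors and the ligases Znrf3 and Rnf43. In the developing cerebellum, WNT signals are known for patterning the hindbrain and for acting on neuronal differentiation and synapses.

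The genes described are the WNT ligands, the Frizzled receptors and the co-receptors and helpers that act beside them, chosen by symbol: every Wnt and Fzd gene and Lrp5, Lrp6, Ror1, Ror2, Ryk, Porcn, Wls and Rspo1 to Rspo4. They are 40 of 22180 measured genes, with 19 ligands, 2 genes of WNT secretion, 10 Frizzled receptors, 2 LRP co-receptors, 3 other receptors and 4 R-spondins.

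RNA from dissociated cerebella of newborn C57BL/6 mice was measured on 15 Affymetrix Mouse Gene 2.1 ST arrays, 1 per library and 5 per group. The age is postnatal day 1 in the sample characteristics and the design text and postnatal day 2 in the growth protocol. The label DKO (double knockout) stands for the loss of both isoforms, alpha and beta, in cerebellar granule neuron progenitors (CGNPs). The Math1-Cre control carries 1 altered and 1 intact Gsk3a allele (written Gska+-) and floxed Gsk3b alleles (GskBff) with Cre, and the design text gives it as deleted for Gsk-3 beta alone. The no-Cre control has the same Gsk3a and Gsk3b alleles without Cre, although the description of its replicate 5 leaves out the Gsk3b genotype. The Math1 (Atoh1) promoter drives Cre in granule neuron progenitors, so cells of the cerebellum in which it was never active should keep their floxed alleles. The gradient used to enrich progenitors does not remove every other cell type. Nothing in the labels says whether replicates of a group came from separate litters, so the p-values cover only the spread among these libraries, which may be technical. Values are log2 expression, and a difference of 1 is a doubling.

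The labels were checked first on the row annotated to Gsk3a, which shares a further symbol, 9130221H12Rik. It lay below 9.0 in 5 libraries, at 8.22, 7.89 and 8.27 in the libraries labelled DKO 2, 4 and 5 and at 8.25 and 8.03 in those labelled Math1-Cre 1 and 2. It lay at 9.47 and 9.37 in the libraries labelled DKO 1 and 3, at 9.48, 9.50 and 9.51 in those labelled Math1-Cre 3, 4 and 5, and between 9.42 and 9.59 in the no-Cre libraries. The row thus goes against the label in 4 libraries, and each comparison is given with all 15 libraries and with the 11 others. The 11-library fit was chosen after the values were seen, and WNT genes had been noticed to split in the same way before the row was looked up, so its WNT calls are not blind. Xist, which female cells express, had the lowest difference of all genes in DKO minus Math1-Cre over the 11 libraries (-2.21). In Math1-Cre minus no-Cre it had the highest (2.89), and Eif2s3y, a Y-chromosome gene, the lowest (-2.39). Over the 15 libraries Xist was again the highest there (1.635). The mix of sexes thus appears to differ between groups. No fit included sex, and its part in the differences was not tested. The arrays labelled DKO 3, 4 and 5 and no-Cre 4 had a narrower spread of values than the rest (interquartile ranges over genes of 4.00 to 4.12 against 4.22 to 4.40). The mean level of 6 markers of granule neuron progenitors was 8.28 to 8.42 in the 5 libraries with a low Gsk3a row and 8.57 to 8.94 in the 10 with a high row. These ranges do not overlap, and 1 of the 6 markers taken alone was lower in every low library than in every high one. The mean was well above background in every library.

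Most receptors and both secretion genes were measured well above background, and most ligands were not. As a measure of background on each array, the level of 1390 olfactory and vomeronasal receptor genes was used, most of which brain tissue is not known to express. Their 95th percentile was 4.65 to 5.58 between arrays, and it was highest on the 4 narrow arrays. Above it in every library were 17 of the 40 genes: the ligands Wnt3, Wnt5a and Wnt7b, the secretion genes Porcn and Wls, the 7 receptors Fzd1, Fzd2, Fzd3, Fzd4, Fzd6, Fzd7 and Fzd8, the co-receptors Lrp5 and Lrp6, and Ror1, Ror2 and Ryk. Not above it in any library were 15 genes, among them 13 ligands (Wnt1, Wnt2, Wnt3a, Wnt4, Wnt5b, Wnt6, Wnt8a, Wnt8b, Wnt9a, Wnt9b, Wnt10b, Wnt11 and Wnt16), Fzd5 and Rspo4. The other 8 (Wnt2b, Wnt7a, Wnt10a, Fzd9, Fzd10, Rspo1, Rspo2 and Rspo3) passed it in some libraries. RNA of a mixture of cells does not tell fewer cells of a type from less RNA per cell. A low level can thus also come from a small number of cells, and differences near background can be compressed.

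**Figure D1:**
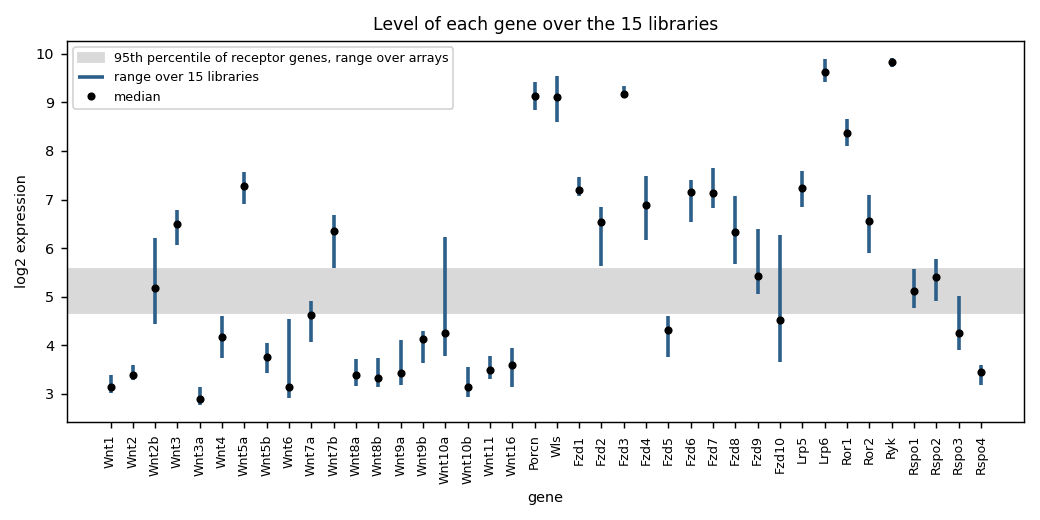
Log2 expression (y axis) of each of the 40 genes (x axis), with the range over 15 libraries as a bar and the median as a point, and the range of the background percentile of the 15 arrays in grey. Fzd10 and Wnt10a have the longest bars, at 2.61 and 2.45, and run from below the grey band to above it.

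The 40 genes varied somewhat more between libraries than genes in general. Their median range over the 15 libraries was 0.80, against 0.63 for all genes, and 11 of 40 had a range over 1, against 17.37% of all genes. A range over 2 was seen for Fzd10 and Wnt10a alone among the 40, and for 0.9964% of all genes. Fzd10 ran from 3.65 in the library labelled DKO 3 to 6.26 in the library labelled Math1-Cre 1. Wnt10a ran from 3.78 in the library labelled DKO 1 to 6.23 in the library labelled DKO 4. The lowest value of 14 of the 40 genes was in the library labelled DKO 3, and the highest value of 11 was in the library labelled Math1-Cre 5, so a single library often set the ends of a gene's range.

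**Figure D2:**
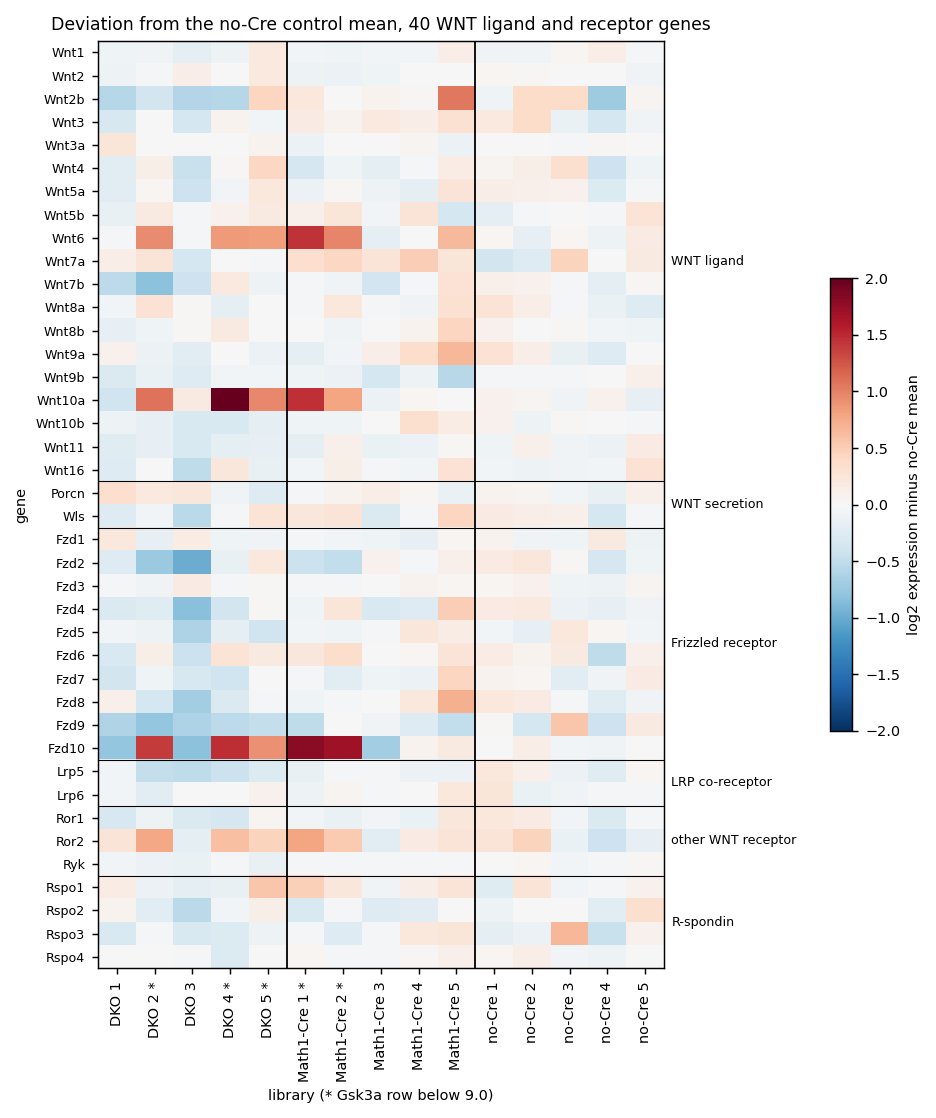
Log2 expression of the 40 genes (rows, by role) in the 15 libraries (columns, by label, with a star where the Gsk3a row is below 9.0), minus the mean of the 5 no-Cre libraries. Fzd10, Wnt10a, Wnt6 and Ror2 are higher in each starred column than in any column without a star.

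By the Gsk3a row, 4 of the 40 genes had every library with a low row above every library with a high row: the receptor Fzd10, the ligands Wnt10a and Wnt6, and the receptor Ror2. The same split held for 147 of the 22180 genes (0.663%), and the opposite one for 187 (0.843%) and for 0 of the 40. Within the 10 Cre-labelled libraries, which leaves out every no-Cre library, the same 4 genes stood apart upward and 0 downward, against 219 genes (0.987%) upward and 400 (1.8%) downward. This is a description, with no test, because the groups were formed from a measured value.

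The promoters of these genes are shown because the genes share this split, by a very small gap in Ror2, and because TCF and LEF factors bind a CTTTG core. RefSeq windows from 250 bases before to 50 after the start (assembly GRCm38.p6) were held for 27 of the 40 genes, in 30 windows, and for Fzd10, Wnt6 and Ror2 of the 4. In lower case, with CTTTG or its reverse complement CAAAG in capitals, Fzd10 is at chr5:128600856-128601155 on the plus strand, Wnt6 at chr1:74771642-74771941 on the plus strand and Ror2 at chr13:53286075-53286374 on the minus strand:
Fzd10: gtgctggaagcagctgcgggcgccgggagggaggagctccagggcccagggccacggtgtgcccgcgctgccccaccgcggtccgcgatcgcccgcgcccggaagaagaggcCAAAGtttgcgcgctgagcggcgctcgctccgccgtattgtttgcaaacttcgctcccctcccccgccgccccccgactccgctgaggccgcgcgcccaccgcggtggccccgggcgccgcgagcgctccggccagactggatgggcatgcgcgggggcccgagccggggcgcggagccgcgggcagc
Wnt6: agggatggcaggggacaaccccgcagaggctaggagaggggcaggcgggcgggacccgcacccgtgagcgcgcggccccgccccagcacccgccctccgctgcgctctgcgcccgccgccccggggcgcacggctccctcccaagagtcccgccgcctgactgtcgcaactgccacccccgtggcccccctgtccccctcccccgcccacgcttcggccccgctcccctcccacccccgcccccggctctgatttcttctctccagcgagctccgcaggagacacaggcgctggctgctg
Ror2: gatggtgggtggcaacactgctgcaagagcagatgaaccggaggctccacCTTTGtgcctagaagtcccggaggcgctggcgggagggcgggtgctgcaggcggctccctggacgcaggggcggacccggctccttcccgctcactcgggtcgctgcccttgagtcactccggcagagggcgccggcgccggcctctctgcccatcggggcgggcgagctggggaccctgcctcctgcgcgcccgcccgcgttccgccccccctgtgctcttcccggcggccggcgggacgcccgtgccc
The Fzd10 window held 1 core on the opposite strand with its first base 138 bases before the start, the Ror2 window held 1 on the same strand 200 bases before the start, and the Wnt6 window held 0. Longer forms, the core followed by AT, AA, TA or TT, were searched on both strands too and had 0 matches in these 3 windows. A core was found in 14 of the 30 windows of the 40 genes (46.67%), against 53.93% of all 32851 windows, and a longer form in 4 (13.33%), against 16.88%. These 3 windows were rich in G and C, at 77.7% in Fzd10, 76.7% in Wnt6 and 74.7% in Ror2. A match of letters is not a binding site, and its absence from so short a window says nothing about the factors.

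Fzd10, a Frizzled receptor, showed the widest split. It lay at 3.69, 5.86, 3.65, 5.94 and 5.37 in the libraries labelled DKO 1 to 5, at 6.26, 6.16, 3.77, 4.53 and 4.64 in those labelled Math1-Cre 1 to 5, and at 4.46, 4.60, 4.40, 4.39 and 4.46 in the no-Cre libraries. The 5 libraries with a low Gsk3a row ran from 5.37 to 6.26, and the 10 with a high row from 3.65 to 4.64. Only 4 libraries, those labelled DKO 2 and 4 and Math1-Cre 1 and 2, exceeded their own array's background percentile, so every library with a high Gsk3a row lay below it and differences from them can be compressed. By label the DKO and Math1-Cre ranges overlap almost entirely, and both enclose the no-Cre range. Over the 15 libraries DKO minus Math1-Cre was -0.17 ± 0.51 (SE of the limma fit, adjusted p = 0.862) and DKO minus no-Cre was 0.44 ± 0.51 (limma adjusted p = 0.676). Fzd10 rose in DKO over the 11 libraries, by 1.41 ± 0.21 over the Math1-Cre control (limma adjusted p = 0.00913) and by 1.26 ± 0.18 over the no-Cre control (limma adjusted p = 0.00687). Without the library labelled DKO 4 these 2 adjusted p-values were 0.0584 and 0.0547.

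Wnt10a, a ligand known for beta-catenin signalling in teeth, hair and skin, lay at 3.78, 5.25, 4.34, 6.23 and 5.14 in the libraries labelled DKO 1 to 5. It lay at 5.63, 4.96, 4.06, 4.21 and 4.18 in those labelled Math1-Cre 1 to 5, and at 4.26, 4.22, 4.10, 4.26 and 4.01 in the no-Cre libraries. The low-Gsk3a libraries ran from 4.96 to 6.23 and the high ones from 3.78 to 4.34. The same 4 libraries as for Fzd10 exceeded their own array's background percentile, and no control library with a high Gsk3a row did. Over the 15 libraries DKO minus Math1-Cre was 0.34 ± 0.37 (limma adjusted p = 0.597) and DKO minus no-Cre was 0.78 ± 0.37 (limma adjusted p = 0.293). Wnt10a rose in DKO over the 11 libraries, by 1.39 ± 0.22 over the Math1-Cre control (limma adjusted p = 0.0176) and by 1.37 ± 0.20 over the no-Cre control (limma adjusted p = 0.00635). Without the library labelled Math1-Cre 3, 4 or 5 the adjusted p against the Math1-Cre control lay between 0.0539 and 0.0782.

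Wnt6, another ligand, lies directly next to Wnt10a in the genome. It lay at 3.08, 4.05, 3.06, 3.95 and 3.93 in the libraries labelled DKO 1 to 5, at 4.54, 4.07, 2.92, 3.10 and 3.74 in those labelled Math1-Cre 1 to 5, and at 3.14, 2.94, 3.14, 3.00 and 3.26 in the no-Cre libraries. The low-Gsk3a libraries ran from 3.93 to 4.54 and the high ones from 2.92 to 3.74, and all 15 were under the background percentile of their own array, so each difference of Wnt6 lies between values at background. The library labelled Math1-Cre 5 was the highest of the high ones. Over the 15 libraries DKO minus Math1-Cre was -0.06 ± 0.27 (limma adjusted p = 0.915) and DKO minus no-Cre was 0.52 ± 0.27 (limma adjusted p = 0.341). Over the 11 libraries Wnt6 rose by 0.88 ± 0.16 over the no-Cre control (limma adjusted p = 0.0208), and the difference from the Math1-Cre control was 0.72 ± 0.17 (limma adjusted p = 0.112). The call against the no-Cre control was lost without any one of the libraries labelled DKO 2, 4 or 5 or no-Cre 1 or 2 (adjusted p of 0.0506 to 0.0898), and the difference from the Math1-Cre control passed without Math1-Cre 5 (adjusted p = 0.00602).

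Ror2, a receptor of Wnt5a in other tissues, was measured above background in every library. It lay at 6.57, 7.09, 6.12, 6.91 and 6.76 in the libraries labelled DKO 1 to 5, at 7.10, 6.82, 6.08, 6.47 and 6.56 in those labelled Math1-Cre 1 to 5, and at 6.57, 6.75, 6.18, 5.90 and 6.14 in the no-Cre libraries. The gap between low and high Gsk3a libraries was very small, since the lowest low one (DKO 5) was at 6.758 and the highest high one (no-Cre 2) at 6.754. DKO minus Math1-Cre was 0.08 ± 0.21 over 15 libraries (limma adjusted p = 0.835) and 0.55 ± 0.21 over 11 (limma adjusted p = 0.248). DKO minus no-Cre was 0.38 ± 0.21 over 15 libraries (limma adjusted p = 0.355) and 0.61 ± 0.18 over 11 (limma adjusted p = 0.180). None of these passed the threshold.

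**Figure D3:**
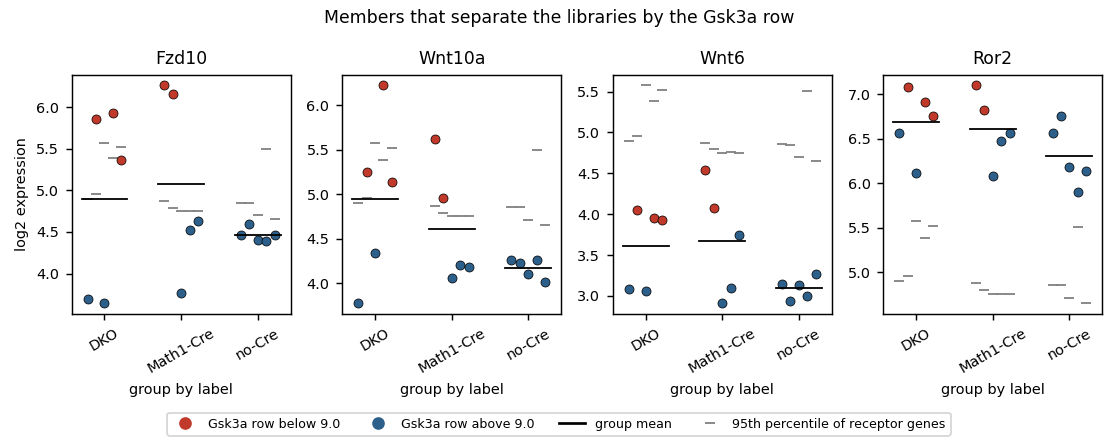
Log2 expression (y axis) of Fzd10, Wnt10a, Wnt6 and Ror2 in each library (points) by labelled group (x axis), red where the Gsk3a row is below 9.0 and blue where it is above, with group means as black lines and each array's background percentile as a grey dash. The red points of each gene lie above all of its blue points, in the columns labelled DKO and Math1-Cre alike.

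Setting DKO against the Math1-Cre control asks what further change comes with the full loss of alpha when beta is already lost. By its label this control keeps 1 intact Gsk3a allele. With all 15 libraries 0 of the 40 genes passed an adjusted p of 0.05, against 122 of all genes (0.55%). At an unadjusted p under 0.05 were 8 of the 40 and 5091 of all 22180 genes. Their median difference was -0.15, against -0.05 for all genes. The smallest adjusted p was that of the ligand Wnt10b, with a difference of -0.27 ± 0.08 (limma adjusted p = 0.0956), and the ligand Wnt2b had the largest difference downward, at -0.60 ± 0.25 (limma adjusted p = 0.171). In the 11 libraries, Fzd10 and Wnt10a rose and 0 of the 40 fell, against 64 genes higher (0.289%) and 56 lower (0.252%) among all genes. The 40 then had a median difference of -0.07, against -0.06 for all genes. With only these groups in the fit neither gene passed (limma adjusted p of 0.0985 for Fzd10 and 0.106 for Wnt10a), nor with the spread of each array as a covariate (limma adjusted p of 0.0563 for Fzd10 and 0.129 for Wnt10a).

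Setting DKO against the no-Cre control asks for the joint change with Cre and the loss of both kinases, from a control with 1 intact Gsk3a allele. With all 15 libraries 0 of the 40 genes passed, against 16 of all genes (0.0721%). At an unadjusted p under 0.05 were 5 of the 40 and 3862 of all 22180 genes. The median difference of the 40 was -0.08, against -0.02 for all genes. In the 11 libraries, Fzd10, Wnt10a and Wnt6 rose and 0 of the 40 fell, against 97 genes higher (0.437%) and 142 lower (0.64%) among all genes. The median difference of the 40 was -0.05, against -0.02 for all genes. Apart from Fzd10, Wnt10a, Wnt6 and Ror2, the other 36 genes lay between -0.59 (Fzd9) and 0.19 (Fzd6), with a lowest adjusted p of 0.129 (Lrp5, limma). The DKO libraries serve in this comparison and in the one with the Math1-Cre control, so the 2 results are not independent.

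**Figure D4:**
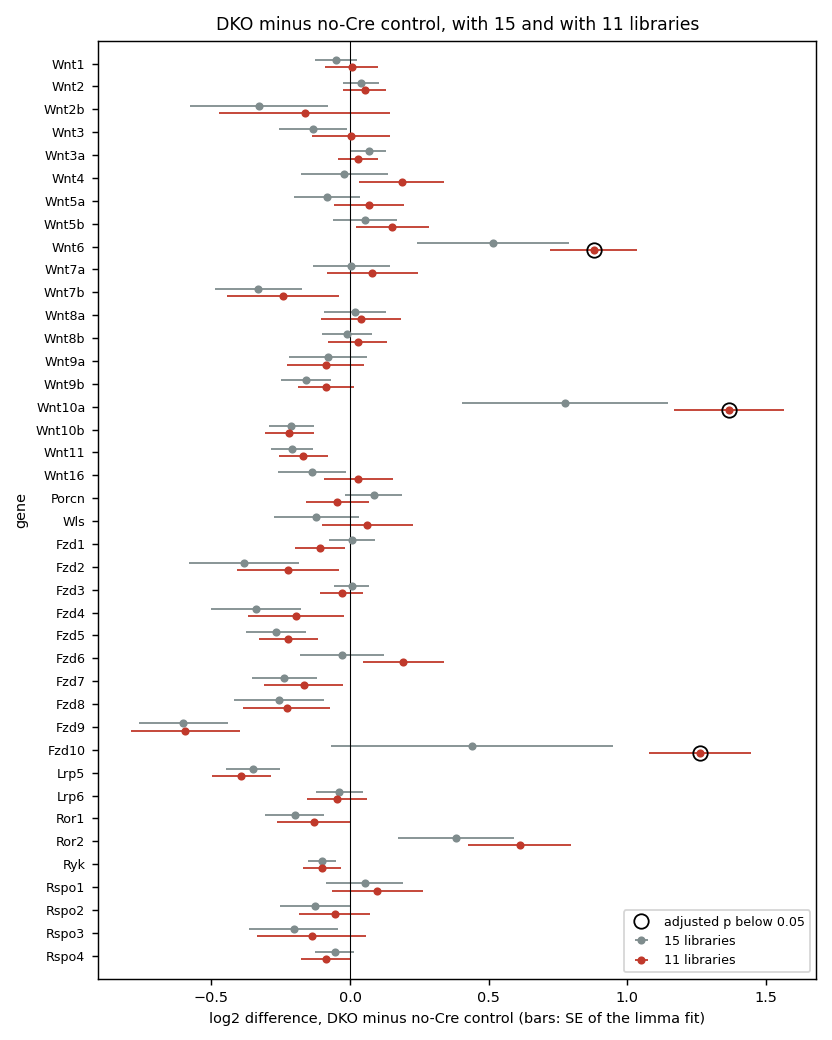
Log2 difference, DKO minus no-Cre control (x axis), for each of the 40 genes (y axis), with the SE of the limma fit as bars, over 15 libraries in grey and 11 in red; black circles mark an adjusted p below 0.05. Wnt10a, Fzd10 and Wnt6 are circled at 1.37, 1.26 and 0.88 over 11 libraries, and no gene is circled over 15.

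Setting the Math1-Cre control against the no-Cre control asks for the change with Cre and the loss of the beta isoform. In limma fits 0 of the 40 genes and 0 of all genes (0%) passed over the 15 libraries, with 2 of the 40 and 716 of all genes at an unadjusted p under 0.05. Over the 11 libraries 0 of the 40 and 0 of all genes (0%) passed again in limma, with 2 and 488 at an unadjusted p under 0.05. Fzd10 differed by 0.61 ± 0.51 over 15 libraries and by -0.15 ± 0.18 over 11 (limma adjusted p of 1.000 in both).

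Among the other ligands, Wnt3, which Purkinje cells are known to express in the cerebellum, ranged from 6.07 to 6.79, Wnt5a, a ligand best known for signalling without beta-catenin, from 6.91 to 7.58, and Wnt7b, known for its action on brain vessels and dendrites, from 5.59 to 6.69. These 3 ligands, the ones above background in every library, did not pass the test in any comparison. Wnt7a, which granule neurons are known to secrete at their synapses, passed the background percentile of its array in 3 of 15 libraries, at a highest level of 4.92 in the library labelled Math1-Cre 4. Wnt2b had a range of 1.76, from 4.44 in the library labelled no-Cre 4 to 6.20 in the library labelled Math1-Cre 5. The mean level of 6 markers of pericytes and meninges was also highest in the libraries labelled Math1-Cre 5 (8.73) and DKO 5 (8.54), the same 2 libraries in which Wnt2b was highest (6.20 and 5.59). The library labelled Math1-Cre 5 was also the highest in the mean level of the markers of choroid plexus and ependyma (8.72), endothelium (7.98) and midbrain (7.28). Otx2 is in both the choroid plexus and the midbrain list, so the means of those lists are not independent. The part of any of these cells in the level of Wnt2b was not tested. Wnt1, Wnt2, Wnt3a, Wnt8a, Wnt8b, Wnt10b and Wnt11 had ranges of 0.31 to 0.62, and Wnt4, Wnt5b, Wnt9a, Wnt9b and Wnt16 of 0.62 to 0.92, all at background.

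Both secretion genes were high in every library. Wls, the carrier of WNT proteins to the surface, lay at 8.88, 9.08, 8.59, 9.09 and 9.40 in the libraries labelled DKO 1 to 5, at 9.36, 9.39, 8.85, 9.11 and 9.55 in those labelled Math1-Cre 1 to 5, and at 9.30, 9.26, 9.23, 8.77 and 9.09 in the no-Cre libraries. Its groups overlap, and DKO minus no-Cre was -0.12 ± 0.15 over 15 libraries (limma adjusted p = 0.707) and 0.06 ± 0.16 over 11 (limma adjusted p = 0.902). DKO minus Math1-Cre was -0.24 ± 0.15 over 15 (limma adjusted p = 0.355) and 0.02 ± 0.18 over 11 (limma adjusted p = 0.960).

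Porcn, the enzyme that attaches the lipid, lay at 9.43, 9.29, 9.32, 9.00 and 8.84 in the libraries labelled DKO 1 to 5, at 9.07, 9.15, 9.23, 9.14 and 8.96 in those labelled Math1-Cre 1 to 5, and at 9.16, 9.14, 9.03, 8.94 and 9.19 in the no-Cre libraries. The DKO libraries spanned both ends of its range. DKO minus no-Cre was 0.09 ± 0.10 over 15 libraries (limma adjusted p = 0.691) and -0.05 ± 0.11 over 11 (limma adjusted p = 0.895), and DKO minus Math1-Cre was 0.07 ± 0.10 over 15 (limma adjusted p = 0.719) and -0.06 ± 0.13 over 11 (limma adjusted p = 0.825).

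Among the other Frizzled receptors, Fzd3, known for axon guidance with planar polarity genes, had a narrow range of 9.08 to 9.35. Fzd1 ranged from 7.08 to 7.46, Fzd6, a further planar polarity receptor, from 6.53 to 7.40, and Fzd7 from 6.82 to 7.65. Fzd2, at 5.63 to 6.85, Fzd4, the receptor of Norrin in retinal vessels, at 6.17 to 7.49, and Fzd8, at 5.67 to 7.08, each had their lowest value in the library labelled DKO 3. Fzd5 lay at 3.75 to 4.59, at background. Fzd9 had its lowest levels in the libraries labelled DKO, at 5.06 to 5.36, against 5.33 to 5.84 in those labelled Math1-Cre and 5.43 to 6.39 in the no-Cre libraries. On the 4 narrow arrays it lay under the array's own background percentile, at 5.21, 5.32 and 5.36 in DKO 3, 4 and 5 and 5.43 in no-Cre 4. Differences that involve these libraries can be compressed. The DKO and no-Cre ranges of Fzd9 do not overlap, but the difference of -0.60 ± 0.16 over 15 libraries had a limma adjusted p of 0.104. It passed without the library labelled no-Cre 4, at -0.70 ± 0.15 (limma adjusted p = 0.0257), a setting in which 1546 of all genes (6.97%) passed, and over the 11 libraries it was -0.59 ± 0.20 (limma adjusted p = 0.229).

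Lrp5, a co-receptor with a Frizzled, lay at 7.31, 6.90, 6.85, 6.93 and 7.10 in the libraries labelled DKO 1 to 5, at 7.22, 7.34, 7.33, 7.25 and 7.25 in those labelled Math1-Cre 1 to 5, and at 7.58, 7.47, 7.25, 7.12 and 7.41 in the no-Cre libraries. All DKO libraries but DKO 1 lay below every other library. DKO minus no-Cre was -0.35 ± 0.10 over 15 libraries (limma adjusted p = 0.117) and -0.39 ± 0.11 over 11 (limma adjusted p = 0.129), and DKO minus Math1-Cre was -0.26 ± 0.10 over 15 (limma adjusted p = 0.142) and -0.30 ± 0.12 over 11 (limma adjusted p = 0.269). Without the library labelled no-Cre 4 the difference from the no-Cre control passed, at -0.41 ± 0.09 (limma adjusted p = 0.0280) over the 14 others and at -0.45 ± 0.09 (limma adjusted p = 0.0241) over 10 of the 11. Without it 6.97% of all genes passed over 14 libraries and 4.78% over 10, against 0.0721% and 1.08% with it. That library was 1 of the 4 narrow arrays.

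Lrp6, the other co-receptor, lay at 9.59, 9.41, 9.65, 9.65 and 9.73 in the libraries labelled DKO 1 to 5, at 9.55, 9.70, 9.62, 9.63 and 9.86 in those labelled Math1-Cre 1 to 5, and at 9.89, 9.51, 9.58, 9.63 and 9.63 in the no-Cre libraries. Its groups overlap throughout. DKO minus no-Cre was -0.04 ± 0.08 over 15 libraries (limma adjusted p = 0.841) and -0.05 ± 0.11 over 11 (limma adjusted p = 0.884), and DKO minus Math1-Cre was -0.06 ± 0.08 over 15 (limma adjusted p = 0.675) and -0.10 ± 0.12 over 11 (limma adjusted p = 0.680). A second row of Lrp6 had a mean of 4.95, against 9.64 for the row used.

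Ryk had the narrowest range of the 40, from 9.72 to 9.91, and Ror1 ranged from 8.10 to 8.65. Among the R-spondins, Rspo1 lay at 4.78 to 5.57 and Rspo2 at 4.91 to 5.78, near the background percentile, and Rspo4 at 3.19 to 3.59, below it. Rspo3 had the widest range of them, and lay at 4.05, 4.31, 4.05, 4.07 and 4.26 in the libraries labelled DKO 1 to 5, at 4.31, 4.09, 4.33, 4.56 and 4.59 in those labelled Math1-Cre 1 to 5, and at 4.17, 4.23, 5.01, 3.91 and 4.44 in the no-Cre libraries. Both ends of its range were no-Cre libraries. DKO minus no-Cre was -0.20 ± 0.16 over 15 libraries (limma adjusted p = 0.524) and -0.14 ± 0.20 over 11 (limma adjusted p = 0.805), and DKO minus Math1-Cre was -0.23 ± 0.16 over 15 (limma adjusted p = 0.402) and -0.28 ± 0.22 over 11 (limma adjusted p = 0.532).

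Other genes of the pathway were counted in lists, which were chosen with earlier results of these data known. No gene of these lists passed in either DKO comparison over the 15 libraries with limma. Over the 11 libraries, against the no-Cre control, where 0.437% of all genes rose, 4 of 14 secreted antagonists did: Wif1, which binds WNT proteins, by 3.76 ± 0.17, Notum, which removes their lipid, by 2.57 ± 0.12, Sostdc1 by 1.58 ± 0.23 and Dkk1, which blocks LRP5 and LRP6, by 0.65 ± 0.07 (limma adjusted p between 1.00e-06 and 0.00759). Of the 5 R-spondin receptors and ligases 2 rose, Lgr6 by 2.54 ± 0.25 (limma adjusted p = 0.000402) and Znrf3, which clears Frizzled receptors from the surface, by 0.64 ± 0.09 (limma adjusted p = 0.00501). Of 9 TCF/LEF factors and beta-catenin targets 4 rose: Lef1 by 1.92 ± 0.15, Sp5 by 1.54 ± 0.15, Axin2 by 1.28 ± 0.10 and Nkd1 by 1.17 ± 0.19 (limma adjusted p between 3.73e-05 and 0.0106).

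Of 12 other surface partners only Kremen1, a partner of DKK proteins, rose, by 0.64 ± 0.11 (limma adjusted p = 0.0153), and of 13 cytoplasmic transducers and 8 planar polarity genes 0 passed in limma. Against the Math1-Cre control over the 11 libraries, where 0.289% of all genes rose, 4 secreted antagonists, 2 R-spondin receptors and ligases, 4 targets and factors and 0 genes of the other 3 lists rose. None of these lists had a gene called lower in limma. By the Gsk3a row, every low library lay above every high one for 4 of 9 targets and factors and 3 of 14 antagonists. The same held for 3 of 12 other surface partners and 2 of 5 R-spondin receptors and ligases, against 0.663% of all genes. The opposite split held for 1 target or factor, 1 of 13 cytoplasmic transducers and 1 of 8 planar polarity genes, against 0.843% of all genes. Of the 6 markers of granule neuron progenitors, 2 fell against the no-Cre control over the 11 libraries, where 0.64% of all genes fell. They were Atoh1, by 0.80 ± 0.17 (limma adjusted p = 0.0495), and Mycn, by 0.64 ± 0.12 (limma adjusted p = 0.0296). Against the Math1-Cre control, where 0.252% of all genes fell, 1 of the 6 did, Mycn, by 0.70 ± 0.14 (limma adjusted p = 0.0489). Over the 15 libraries 0 of the 6 passed in either comparison.

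Beside the 4 genes that split by the Gsk3a row, no list of markers of another cell type had a called gene in either DKO comparison, over 15 or 11 libraries. The mean level of each of these lists overlapped between libraries with a low and with a high Gsk3a row. For the 6 choroid plexus and ependymal markers it was 7.97 to 8.63 in the low libraries and 7.61 to 8.72 in the high ones. For the 6 markers of pericytes and meninges it was 7.93 to 8.54 in the low and 7.55 to 8.73 in the high libraries, for the 6 of endothelium 7.23 to 7.62 and 7.25 to 7.98, and for the 6 of astrocytes and Bergmann glia 8.22 to 8.57 and 7.89 to 8.47. For the 8 Hox genes that mark the brainstem, the mean was 3.52 to 4.23 in the low and 3.41 to 4.41 in the high libraries.

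Genes that lie beside Wnt10a, Ror2 and Fzd10 were examined, with a window of 10 protein-coding genes on each side chosen after the values were seen. In DKO against the no-Cre control over the 11 libraries, 0.437% of all genes rose and 0.64% fell. Around Wnt10a, 1 of 17 measured neighbours other than Wnt6 rose in this comparison. It was Cryba2, a crystallin gene at place 3 after Wnt10a, which rose by 2.54 ± 0.31 (limma adjusted p = 0.00200), and lay at 4.98 to 6.91 in the low-Gsk3a libraries and at 3.14 to 3.77 in the high ones. Cdk5r2, between them, differed by -0.05 ± 0.10 (limma adjusted p = 0.857). Plcd4 and Fev in this window were not analysed here.

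Around Ror2, 2 of 19 measured neighbours rose, where 0.437% of all genes did. They were Gadd45g at place -5, by 1.18 ± 0.16 (limma adjusted p = 0.00455), and the kinase gene Syk at place -3, by 1.53 ± 0.17 (limma adjusted p = 0.000823). Cks2, at place -8, went the other way without passing, at -0.63 ± 0.14 (limma adjusted p = 0.0586). Its low-Gsk3a libraries, at 9.621 to 9.836, all lay below the high ones, at 9.842 to 10.61. Around Fzd10, 0 of 19 were called in limma, and they lay between -0.45 and 0.34. Fzd10os, an antisense transcript beside Fzd10, lay at 4.77 to 5.44 in the low-Gsk3a libraries and at 3.80 to 4.91 in the high ones, which overlap. Its DKO minus no-Cre difference over 11 libraries was 0.54 ± 0.20 (limma adjusted p = 0.286). Whether the labelled product kept its strand is not given in the sources used here.

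**Figure D5:**
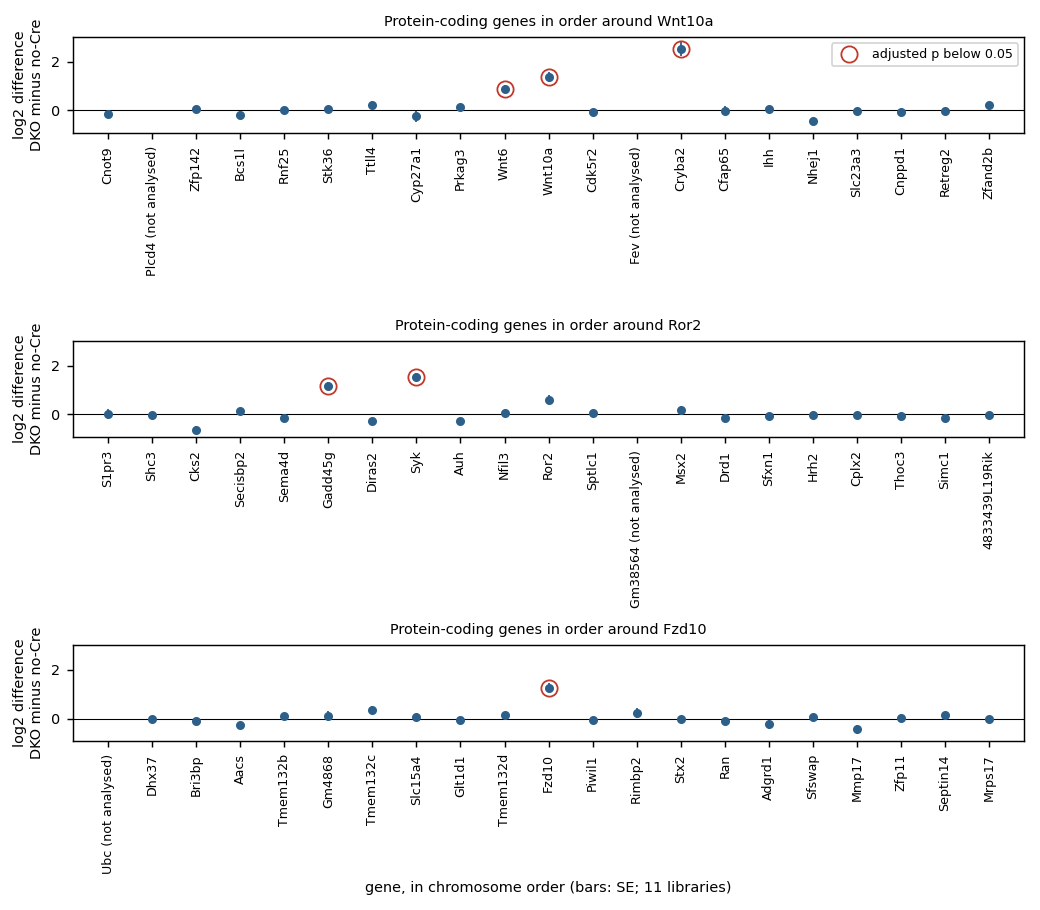
Log2 difference, DKO minus no-Cre control over 11 libraries (y axis), for protein-coding genes in chromosome order (x axis) around Wnt10a, Ror2 and Fzd10, with SE bars and a red circle where the adjusted p is below 0.05. Wnt6, Wnt10a and Cryba2 are circled in the top panel at 0.88, 1.37 and 2.54, Gadd45g and Syk in the middle panel, and Fzd10 alone in the bottom panel.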

How the data were processed

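The deposited values are log2 expression, 1 per array row, made by the authors with RMA, Partek 6.6 and genome build mm9, per the submitters' processing notes. The order and settings of these steps were not given in the sources used here. Values ran from 2.11 to 13.49 and were used as deposited. Of 41345 rows, 23521 had 1 symbol in the platform annotation, 1814 several and 16010 none. Rows with 1 symbol were kept, and for the 1082 genes with several rows the row with the highest mean was used. Of the rows kept, 23328 matched the GRCm38.p6 gene table by identifier.

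A limma model with 3 group means was fitted to the 15 libraries (12 residual degrees of freedom) and, as an alternative chosen after the data were seen, to 11 libraries (8 degrees), over all 22180 genes, with eBayes moderation and two-sided p-values adjusted by Benjamini-Hochberg within each comparison at 0.05. The fit was tested on simulated data. The members and lists were chosen with earlier results of these data known. Per-library values are given for members called in any comparison, members whose Gsk3a-low and Gsk3a-high ranges do not overlap, the member with the largest range in each role, and Wls, Porcn, Lrp5 and Lrp6. Of other genes, up to 4 called per list are named, and neighbours outside this rule were named after their values were seen. Alternatives were to drop genes below the 30th percentile in mean level, to normalize by quantiles, to centre arrays, to moderate with trend and robustly, to fit only the compared groups, to weight arrays, to block by replicate number, to add cg1724 (a code of the replicate-5 libraries) or array spread as a covariate, to average a gene's rows, and to leave out each library. Same-numbered libraries correlated between -0.303 and 0.299 in their deviations (15 pairs), so the numbers were not taken to pair libraries. The number of arrays limits the precision. Software was R 4.3.3 with limma 3.58.1, and Python 3.11.15 with matplotlib 3.10.9.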

Additional observations from a re-analysis of the deposited data

Results flagged for a closer look

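Sets of 5 libraries (1 gene in 1 labelled group) were checked for a highest or lowest library apart from the other 4. In 12 of 120 sets the gap was more than 0.71 of the set's range, Dixon's 95% critical value. For independent normal values chance flags about 1 in 20. These sets share libraries and some hold equal values, such as Ryk at 9.8275 in Math1-Cre 1, 4 and 5. The 12 can thus not be set against that rate. Of the 12 flags, 8 were in the replicate-5 libraries, whose descriptions share the code cg1724.

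In the library labelled DKO 5, Wnt2b was at 5.59 (the others of its group 4.56 to 4.79) and Wnt1 at 3.39 (3.01 to 3.12). In the library labelled Math1-Cre 5, Wnt2b was at 6.20 (5.14 to 5.36), Fzd7 at 7.65 (7.01 to 7.18), Ror1 at 8.65 (8.30 to 8.38) and Wnt1 at 3.32 (3.11 to 3.14). In the library no-Cre 5, Wnt16 was at 3.95 (3.56 to 3.60) and Wnt9b at 4.30 (4.15 to 4.19). Wnt2b and Wnt1 thus stood out in the DKO and Math1-Cre libraries of replicate 5, and neither did in the no-Cre library of replicate 5, where Wnt2b was at 5.20 and Wnt1 at 3.15.

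Elsewhere, Wnt3a was high in the library labelled DKO 1, at 3.14 (2.90 to 2.96), and Ryk in Math1-Cre 3, at 9.85 (9.83 in the other 4). Fzd6 was low in no-Cre 4, at 6.53 (7.11 to 7.23), and Rspo4 in DKO 4, at 3.19 (3.43 to 3.47). Wnt1, Wnt3a, Wnt9b, Wnt16 and Rspo4 lie at background in every library.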

How the results depend on the processing

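Over the 15 libraries, 0 of the 40 genes passed in any comparison under most settings. Against the no-Cre control, array weights gave 1 (Lrp5, lower, where 3.33% of all genes passed). Leaving out single libraries gave 0 to 2 (Fzd9 and Lrp5, both lower, without no-Cre 4, where 6.97% of all genes passed). The 11 libraries gave 3 against it, all higher. Against the Math1-Cre control the 11 libraries gave 2, and leaving out single libraries 0. Over the 11 libraries, the 2 calls against the Math1-Cre control (Fzd10 and Wnt10a) became 0 with only the groups compared and 0 with the replicate block. They became 0 with array spread as a covariate, and 1 to 2 without single libraries (1 without DKO 4, Math1-Cre 3 or Math1-Cre 4). Array weights gave 4 calls, where 9.01% of all genes passed. Wnt6 was added there as higher and Wnt10b as lower, at -0.41 ± 0.10 (limma adjusted p = 0.0325). The 3 calls against the no-Cre control became 0 with the replicate block and 1 to 4 without single libraries. There was 1 without DKO 4, and 4 without no-Cre 4, with Lrp5 added as lower, where 4.78% of all genes passed. Array weights also added Lrp5 as lower, at -0.43 ± 0.09 (limma adjusted p = 0.0183), where 9.8% of all genes passed. With the replicate block the adjusted p against the no-Cre control was 0.0550 for Wnt10a, 0.0728 for Fzd10 and 0.123 for Wnt6. Over the 15 libraries the block gave 0 calls among the 40 in each comparison. The cause of these changes was not tested.

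Against the Math1-Cre control over 15 libraries the sign of 3 differences turned: Wnt6 was 0.078 after centring, 0.72 over the 11 libraries and -0.25 to 0.16 without single libraries, Fzd10 was 1.41 over the 11 and -0.49 to 0.14 without single libraries, and Ror2 was -0.051 to 0.23 without single libraries. Over 11 libraries Fzd10, Wnt10a, Wnt6 and Ror2 kept their sign in both DKO comparisons under every setting run. Wnt6 against the Math1-Cre control passed there with centring (adjusted p = 0.0453) and array weights (0.0152), and Wnt6 was not tested under the low-level filter.

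Centring each array on its median moved the median of all genes over 15 libraries to 0.09, from -0.05 against the Math1-Cre control and from -0.02 against the no-Cre control. Among all genes, the calls against the Math1-Cre control were 29 higher and 93 lower, against 20 and 3 after centring, 11 and 9 after quantile normalization, 773 in all with array weights, 236 with trend and robust moderation, 0 with array spread and 0 with the block. Those against the no-Cre control were 4 higher and 12 lower, against 3 and 3, 0 and 0, 739, 33, 0 and 6, and 2 with only the groups compared and 7 with cg1724. Over 11 libraries the 64 higher and 56 lower genes against the Math1-Cre control became 111 and 28 after centring and 103 and 42 after quantile normalization, with 1999 in all under array weights, 39 with only the groups compared, 25 with the block and 60 with array spread. The 97 and 142 against the no-Cre control became 146 and 83 and 136 and 118, with 2173, 131, 42 and 147. Without single libraries these counts ran from 0 to 1288 and 0 to 1546 over 15 libraries and from 44 to 446 and 80 to 1060 over 11, the highest each time without no-Cre 4, so the shares of all genes called are loose.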

Other observations

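The 10 libraries with a high Gsk3a row were not alike in Fzd10. It lay at 3.69 and 3.65 in the libraries labelled DKO 1 and 3 and at 3.77 in the library labelled Math1-Cre 3, against 4.53 and 4.64 in those labelled Math1-Cre 4 and 5 and 4.39 to 4.60 in the no-Cre libraries. In the same 3 libraries Wnt10a lay at 3.78, 4.34 and 4.06 and Wnt6 at 3.08, 3.06 and 2.92. In all 10 libraries Fzd10 was below the background percentile of receptor genes on its array, so these values differ within the background range.

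Among the 4 genes that split by the Gsk3a row, the order of the 5 low libraries differed between genes. Fzd10, Wnt6 and Ror2 were highest in the library labelled Math1-Cre 1, at 6.26, 4.54 and 7.10, and Wnt10a was highest in the library labelled DKO 4, at 6.23.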
